A study of Mus musculus with 1790 samples.

Results

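The genes described here encode the nuclear share of the mitochondrial respiratory chain. They were chosen by symbol alone: every row that began with Nduf, Uqcr, Cox4 to Cox8 or Atp5, or that was Sdha, Sdhb, Sdhc or Sdhd, with pseudogene rows left out. This gave 93 genes out of 30160 gene symbols over all the tables, and 80 of them had a row in every table. The rule itself uses no measured value.

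The respiratory chain sits in the inner mitochondrial membrane. Complex I (NADH dehydrogenase) and complex II (succinate dehydrogenase) pass electrons to ubiquinone, complex III passes them to cytochrome c, and complex IV (cytochrome c oxidase) passes them to oxygen. The protons pumped on the way drive ATP synthase, complex V. Most subunits are encoded in the nucleus and are made in the cytoplasm, while a small set of core subunits is encoded in the mitochondrial genome. Neural progenitors are known for relying more on glycolysis, and maturing neurons for relying more on this chain.

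Of the 93 genes, 7 encode core subunits of complex I, 29 its accessory subunits and 8 its assembly factors. Complex II has 4, complex III 8, complex IV 11 widely used subunits and 8 paralogs known for restricted tissues, and complex V 15. Cox7a2l, a supercomplex factor, and 2 genes that are named for ATP synthase without encoding a subunit make up the rest. In the GRCm38 annotation 91 of the genes were found, and they lie on 19 chromosomes.

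The study followed cortical neurogliaform cells (NGCs), a kind of inhibitory interneuron, from the embryonic preoptic area (POA) to the cortex. At E14.5, POA and caudal ganglionic eminence (CGE) of C57BL/6 wild-type embryos were profiled in droplets, with 1 library each of 2106 and 4115 cells. Also at E14.5, 352 POA cells of wild-type embryos labelled with FlashTag (a dye injected 2 h before collection that marks cells then dividing at the ventricle) were captured on microfluidic C1 chips, as were 418 POA cells that were tdTOM+/GFP+ in Hmx3-Cre;R26tdTOM mice carrying Htr3a-GFP. At P15 and P30, GFP+ cells of the same genotype were sorted from the upper layers of somatosensory cortex with or without tdTOM, 390 cells at P15 and 581 at P30. In these mice tdTOM marks cells whose lineage expressed Hmx3, and GFP marks expression of Htr3a. The labels give C57BL/6 for the FlashTag+ embryos as well. The study's methods state a C57BL/6 background for its mice. They name CD1, however, for FlashTag injections and, in 1 passage, for droplet libraries. Brains were pooled within each age, and the labels do not tie cells to animals. Each collection is therefore 1 sample, no test was possible, and all differences below are descriptions of these collections. The 95% intervals are exact Poisson intervals for levels and exact Clopper-Pearson intervals for shares. Intervals for levels and for shares of counts cover counting error only. Those for shares of cells treat the cells of a collection as independent and do not cover differences between animals.

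Levels are given in CPM, counts of a gene scaled to the same library total for every group, from the counts summed over the cells of a group. A log2 fold was taken after 10 CPM were added to both groups, and a gene was called past the fold at a log2 fold of at least 0.5 in either direction when the mean of both groups reached 50 CPM. Droplet cells held 2515 to 65782 counts and C1 cells 18412 to 991458. Per cell, the genes together took a median of 3.06% of counts in POA droplets, 3.04% in CGE droplets, 1.62% at P15 and 0.84% at P30. Droplet and C1 tables, and the tables of P15 and P30, were made separately, so no level is compared between them. The P15 and P30 tables share 11979 of 17465 rows, and the P15 table has no row of a mitochondrially encoded gene. In the droplet libraries the regions carried their defining genes unequally: Nkx2-1 stood at 384.4 CPM in POA and 151.8 CPM in CGE, and Hmx3 at 16.7 and 0.2 CPM. The libraries shared 12 cell barcodes. The study's methods give fewer recovered CGE cells than the files hold and more for POA, so those numbers may be crossed there.

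The first comparison asked how the chain is expressed as embryonic cells go from progenitor to neuron. Droplet cells were ordered by Dcx (a microtubule protein of young neurons) minus Nes (nestin, an intermediate filament of progenitors), each log-scaled per cell, and the class with the highest Dcx was set against the class with more Nes than Dcx. The chain kept a nearly constant share of the counts. In POA it took 3.08% of all counts in the Nes class (337 cells), 3.12% where both were equal (314 cells), and 3.00%, 3.03% and 2.98% in the low, middle and high Dcx classes (485 cells each). In CGE the shares were 3.18% (690 cells), 3.17% (641 cells), and 3.10%, 3.05% and 2.92% (928 cells each). The drop in CGE was steady but small, and in POA the classes did not follow 1 direction.

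**Figure D1:**
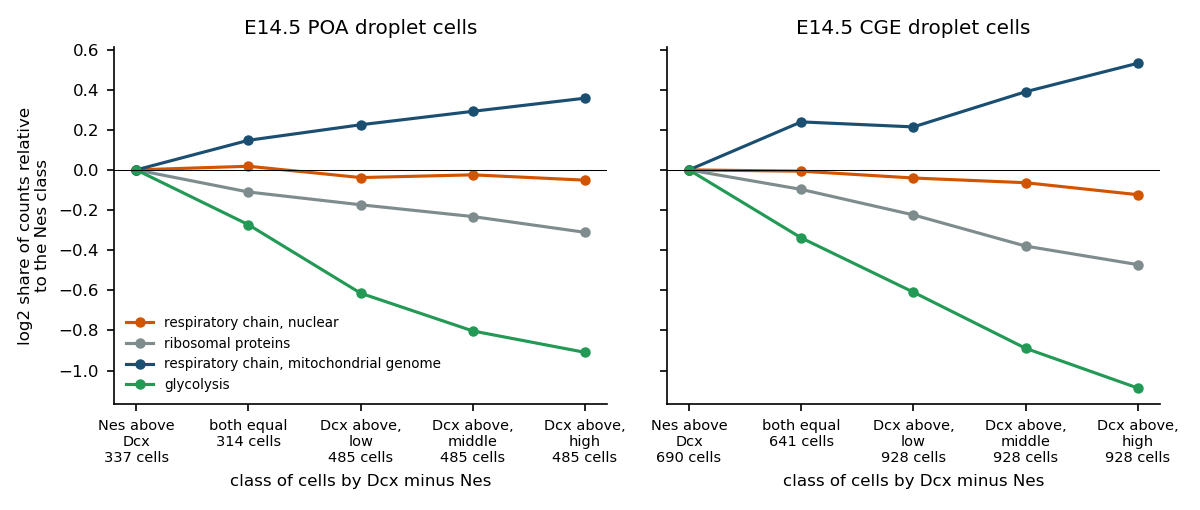
The share of counts taken by 4 gene groups in each class of the Dcx minus Nes order, as log2 relative to the Nes class, for POA (left) and CGE (right) droplet cells. The nuclear-encoded chain stays near 0 in both libraries, while glycolysis runs below it and the mitochondrially encoded subunits run above it.

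Gene by gene the picture was the same. In POA, 78 of 91 genes passed the filter on level, and their median log2 fold was 0.00, beside -0.05 over all 3411 rows that passed. None was past the fold in the upward direction, where 19.7% of all rows were, and 3 were past it downward, where 18.4% of all rows were. In CGE, 78 of 90 passed with a median of -0.09, beside -0.04 over all 3414 rows. Past the fold were 1 gene upward (21.9% of all rows) and 6 downward (22.1% of all rows). The log2 folds of the members had an SD of 0.19 in POA and 0.24 in CGE, while over all rows the SD was 0.77 and 0.88. Since the members are also more abundant than most rows (median 333.7 CPM against 101.0 CPM in POA), the SD was taken again over the rows above the lower quartile of the members' levels, where it was 0.78 in POA and 0.94 in CGE.

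The genes that were lower in the highest Dcx class of both libraries were Atp5g2, Ndufa12 and Ndufc2. Atp5g2, 1 of the 3 genes for the c subunit of the ATP synthase ring, went through the classes at 604.2, 578.1, 498.5, 490.1 and 419.9 CPM in POA, a log2 fold of -0.51. In CGE it went from 654.8 over 587.7, 548.8 and 458.5 to 405.6 CPM, a log2 fold of -0.68. Every step was downward in both libraries. Ndufa12 and Ndufc2, accessory subunits of complex I, were lower too. Ndufa12 was at 429.2 CPM (95% interval 405.0 to 454.3) in the Nes class of POA and 292.5 CPM (278.2 to 307.4) in the highest Dcx class, and at 461.3 and 307.9 CPM in CGE. Ndufc2 was at 583.5 and 404.3 CPM in POA and at 605.7 and 407.8 CPM in CGE.

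Against the other genes for the c subunit, Atp5g2 was lower in the highest Dcx class. Of the counts of Atp5g3 and Atp5g2 together, Atp5g2 had 68.5% in the Nes class of POA (66.6% to 70.4%) and 57.4% (55.8% to 59.0%) in the highest Dcx class. In CGE the share was 69.0% (67.8% to 70.3%) and 61.7% (60.0% to 63.3%). The share of Atp5g1 against Atp5g3 stayed between 59.8% and 62.2% in these 4 classes.

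In CGE, 3 more genes were past the fold downward: Sdhd, a membrane anchor of complex II, at 143.4 against 85.8 CPM (log2 fold -0.68), Ndufs8, a core subunit of complex I that carries iron-sulfur clusters (-0.63), and Ndufab1, the mitochondrial acyl carrier protein (-0.53). The gene past the fold upward was Ndufaf3, an assembly factor of complex I, at 44.5 CPM in the Nes class and 70.0 CPM in the highest Dcx class (0.55). In POA it was at 57.4 (48.8 to 67.0) and 63.1 CPM (56.6 to 70.3), intervals that overlap.

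By role, the median differed in sign between the libraries for complex IV and for the 3 complex I assembly factors that passed (-0.24 in POA and 0.26 in CGE). Accessory subunits of complex I had 0.00 and -0.06. Complex II kept its sign, as did complex III, complex V and the core subunits of complex I. The 11 widely used complex IV subunits had a median log2 fold of 0.05 in POA, where Cox7a2 was the highest at 0.26, and of -0.12 in CGE. Cox4i1 and Cox5a, subunits of the nuclear-encoded shell around the catalytic core, were above 0 in both libraries (Cox4i1 0.08 and 0.12, Cox5a 0.19 and 0.20). All 4 genes of complex II were below 0 in both, with medians of -0.27 in POA and -0.27 in CGE. Sdha, the flavoprotein that oxidises succinate, was at 121.3 against 92.8 CPM in POA and at 143.9 against 119.2 CPM in CGE. Sdhb, its iron-sulfur partner, was nearest to 0, at 0.00 in POA and -0.07 in CGE.

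The 7 core subunits of complex I had medians of -0.09 in POA and -0.03 in CGE, and their lowest was Ndufs8, at -0.44 and -0.63. Ndufs1, which carries iron-sulfur clusters, had log2 folds of 0.00 in POA and 0.18 in CGE, Ndufv1, which binds NADH, 0.01 and 0.02, and Ndufv2 -0.20 and -0.14. Uqcrfs1, the Rieske protein of complex III, had 0.12 and 0.08, while the core proteins Uqcrc1 (-0.31 and -0.19) and Uqcrc2 (-0.23 and 0.06) were lower or mixed. For subunits of the catalytic part of ATP synthase the values were -0.09 and 0.14 for Atp5a1, -0.15 and -0.05 for Atp5b, and -0.04 and 0.01 for Atp5c1.

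**Figure D2:**
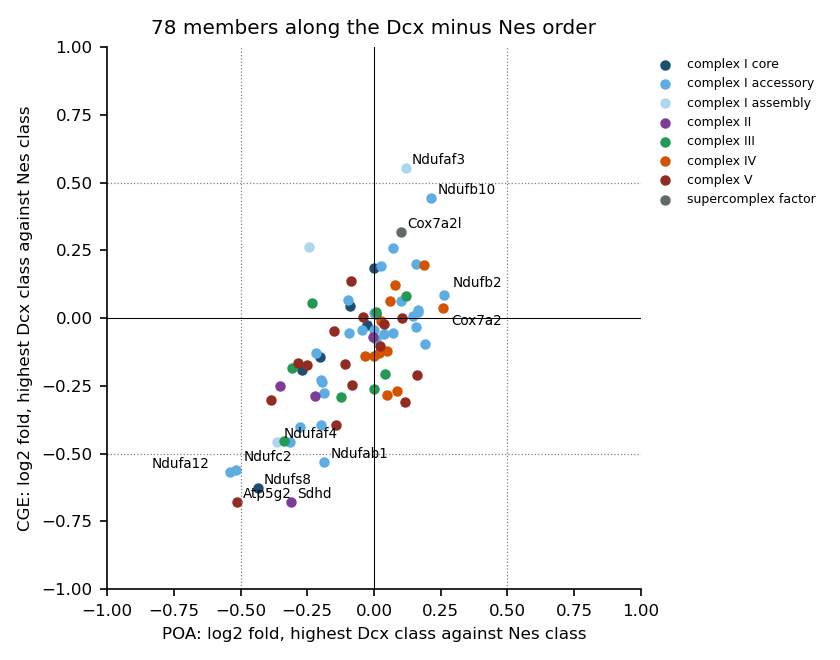
Log2 fold of the highest Dcx class against the Nes class in POA (x axis) and CGE (y axis) for the 78 genes that passed the filter in both, coloured by role, with dotted lines at 0.5 and -0.5. Most points lie inside the dotted square, and Atp5g2, Ndufa12 and Ndufc2 lie beyond it on both axes.

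Across these 78 genes the log2 folds of both libraries had a Pearson correlation of 0.70, a description over genes that share libraries and cells, and 53 (67.9%) had the same sign. Over all 3134 rows that passed in both, the correlation was 0.93 and 87.0% had the same sign. Among the paralogs known for restricted tissues none passed the filter in the droplets. Cox6b2, known as the testis form of subunit 6B, was at 35.2 CPM (28.6 to 43.0) in the Nes class and 9.8 CPM (7.3 to 12.8) in the highest Dcx class of POA, and at 14.47 (11.5 to 18.0) and 2.2 CPM (1.2 to 3.9) in CGE. Cox4i2, the alternative form of subunit 4, had 35 counts in the Nes class of CGE and 1 in the highest Dcx class.

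Other parts of energy metabolism stood apart from the nuclear-encoded chain along the same order. Of 17 glycolysis genes, 10 passed the filter in POA and 8 of them were past the fold downward, with a median log2 fold of -0.71. In CGE 11 of 12 were, with a median of -1.04. Ldha, lactate dehydrogenase A, was at 539.9 against 105.2 CPM in POA and at 711.4 against 109.9 CPM in CGE, and was the lowest of the list in POA. The 13 mitochondrially encoded subunits went the other way, with 4 of 12 past the fold upward in POA (median 0.38) and 7 of 12 in CGE (median 0.52). Of 16 genes of the citric acid cycle and pyruvate dehydrogenase, 11 passed in each library, with medians of -0.10 and -0.03 and with 0 and 2 past the fold, both downward.

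Other values differed between these classes. Ribosomal protein genes took 15.3% of counts in the Nes class and 12.4% in the highest Dcx class of POA, and 15.6% and 11.2% in CGE. All mitochondrially encoded genes together took 3.56% and 4.57% in POA and 2.97% and 4.30% in CGE. Median counts per cell, from the Nes class to the highest Dcx class, were 7066, 6305, 8940, 8465 and 7533 in POA and 7425.5, 4630, 6668, 5474.5 and 4989 in CGE. Red-blood genes, which droplet cells can take up from free RNA, summed to 1387.3 CPM in the Nes class and 605.7 CPM in the highest Dcx class of POA, with 4 of 5 that passed past the fold and none of the 6 at 0, and to 520.2 and 629.8 CPM in CGE. They did not follow the order in POA, where they took 0.139%, 0.0760%, 0.524%, 0.191% and 0.0606% of counts from the Nes class to the highest Dcx class. Markers of glutamatergic neurons summed to 40.7 CPM in the Nes class and 187.7 CPM in the highest Dcx class of POA and to 25.8 and 66.1 CPM in CGE, with Slc17a7 at 0 in both Nes classes. The mean of log2 values of single cells gave a median log2 fold of -0.41 over the genes in CGE, beside -0.30 over all rows. The part of these in the results was not tested.

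Genes of this family are known targets of the transcription factors NRF-1, GABP (an ETS factor), YY1 and ERR. RefSeq gives the 250 bases before the start of 74 of these genes (GRCm38.p6), and these were searched on both strands for the letters GCGCATGC (NRF-1), CCGGAAGT (ETS), AAGATGGCG (YY1) and TCAAGGTCA (ERR). The NRF-1 letters were present in 9 of the 74 (12.2%), beside 2.56% of 27025 genes. The ETS letters were present in 3 (4.05%, beside 3.23%), the YY1 letters in 1 (1.35%, beside 0.710%) and the ERR letters in 1 (1.35%, beside 0.422%). A match is a description and no evidence of binding. The NRF-1 letters and their reverse complement overlap, so a longer palindrome counts on both strands. The following windows, with the matched letters in capitals, are shown because they let the match be seen next to its surroundings. They lie at chr4:24897950-24897997 (plus strand), chr9:44920955-44920992 (minus), chr15:82354347-82354394 (minus), chr10:80406860-80406907 (minus) and chr2:73911350-73911398 (minus), upstream of the annotated start and outside annotated exons.
Ndufaf4, NRF-1: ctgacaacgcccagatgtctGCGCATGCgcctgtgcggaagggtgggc
Atp5l, NRF-1: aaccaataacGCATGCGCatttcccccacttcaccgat
Ndufa6, NRF-1: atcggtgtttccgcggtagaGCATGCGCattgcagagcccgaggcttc
Uqcr11, ETS: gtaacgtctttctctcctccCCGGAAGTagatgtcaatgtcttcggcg
Atp5g3, ERR: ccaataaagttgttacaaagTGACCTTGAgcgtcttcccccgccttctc
In Atp5l and Ndufa6 the capitals are the reverse complement of the NRF-1 letters, and in Atp5g3 that of the ERR letters. The 9 genes with the NRF-1 letters were Atp5g2, Atp5k, Atp5l, Cox6a1, Ndufa11, Ndufa6, Ndufa8, Ndufaf4 and Sdhb, and their log2 folds along the order ran from -0.51 to 0.17 in POA and from -0.68 to 0.20 in CGE.

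The next comparison set the FlashTag+ cells, labelled as they divided, against the tdTOM+/GFP+ cells of the same region. The collections differ in genotype, labelling and perhaps strain as well as in stage, and these cannot be told apart. The labels give C57BL/6 for the FlashTag+ embryos, while the study's methods name CD1 mice for FlashTag injections and, in one of the places that name a strain, for droplet libraries too. The groups carried their stage markers: 7 progenitor genes summed to 6161.6 CPM in FlashTag+ and 237.5 CPM in tdTOM+/GFP+ cells. Of 91 genes of the chain 77 passed the filter, and the median log2 fold (FlashTag+ against tdTOM+/GFP+) was -0.06, beside -0.02 over all 4362 rows. Upward, 1 gene was past the fold, where 22.8% of all rows were, and downward 6 were, where 21.3% were. The chain took 3.19% of the counts of FlashTag+ cells and 3.37% of those of tdTOM+/GFP+ cells, with medians over cells of 3.09% and 3.34%.

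Of the complex I genes that passed, 2 of 28 accessory subunits, 2 of 7 core subunits and 0 of 4 assembly factors were lower. Complex IV had 1 of 11 lower and complex V 1 of 14, and over all rows 21.3% were lower. Ndufb10, an accessory subunit, was at 249.7 CPM in FlashTag+ cells and 475.9 CPM in tdTOM+/GFP+ cells (log2 fold -0.90), Ndufs1 at 67.0 and 113.3 CPM (-0.68), Ndufs5, another accessory subunit, at 87.9 and 136.1 CPM (-0.58), and Ndufv1 at 105.2 and 161.4 CPM (-0.57). The other 2 were Cox6a1, the widely used form of subunit 6A of complex IV (-0.53), and Atp5a1, the alpha subunit of ATP synthase (-0.53). Cox7c, a small subunit of complex IV, was the gene past the fold upward, at 534.5 against 345.3 CPM (0.62). In the droplets the folds set the highest Dcx class against the Nes class, which is the reverse direction of stage. There they were 0.21 in POA and 0.44 in CGE for Ndufb10, 0.00 and 0.18 for Ndufs1, and 0.00 and -0.14 for Cox6a1, none past the fold. The droplet values of Ndufv1 and Atp5a1 are given above, and those of Atp5a1 had opposite signs in POA and CGE.

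Here too glycolysis stood apart, with 6 of 11 genes that passed past the fold upward in FlashTag+ cells and a median of 1.00. Ldha was at 607.0 CPM in FlashTag+ and 114.0 CPM in tdTOM+/GFP+ cells. The mitochondrially encoded list, of which 6 passed, had a median of -0.03 with mt-Co1 past the fold downward (-0.78). Depth differed between the collections, with medians of 283979 and 356990 counts and 3513.5 and 4696 genes per cell, and over FlashTag+ cells the share of the chain correlated with log10 depth at 0.65 and with the ribosomal share at 0.79 (352 cells, which share 1 collection). Over tdTOM+/GFP+ cells these were 0.23 and 0.53 (418 cells). Without the deepest of 4 depth classes the median log2 fold was -0.18, by the mean of single-cell CPM it was -0.24, and by the mean of log2 values of single cells -1.06, beside -0.61 over all rows. The part of depth in this comparison was not tested.

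The postnatal comparisons set labelled subtypes against each other. The authors assigned each cell to a subtype of an adult reference by machine learning on its expression, so labels and levels come from the same counts. Core NGCs were tdTOM+ cells labelled Lamp5 Plch2 Dock5 (Dock5 NGCs) or Lamp5 Lsp1 (Lsp1 NGCs), and non-NGCs were tdTOM- cells of any other subtype, with inconclusive cells left out. The markers of neurogliaform cells (Lamp5, Ndnf, Npy, Reln, Dock5, Lsp1) summed to 17297.4 CPM in NGCs and 2578.6 CPM in non-NGCs at P15, and to 9412.8 and 3102.2 CPM at P30. As the labels were assigned from the same counts, these sums are no independent check of the labels. Both comparisons use the Dock5 and Lsp1 cells, and their values are given side by side. The comparison of NGCs with non-NGCs also sets tdTOM+ against tdTOM- sorts, so it was repeated with tdTOM+ cells of the other subtypes as non-NGCs (42 cells at P15 and 36 at P30).

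NGCs against non-NGCs gave medians of opposite sign at the 2 ages. At P15 (69 and 89 cells), 74 genes of 86 passed and the median log2 fold was -0.20, beside -0.02 over all 4449 rows. Past the fold were 2 upward (15.8% of all rows) and 8 downward (16.8%). At P30 (111 and 96 cells), 71 genes of 89 passed and the median was 0.54, beside 0.04 over all 4377 rows. Past the fold were 39 upward, where 18.9% of all rows were, and 0 downward, where 14.4% were. Within the tdTOM+ sort the P30 median was 0.54 too, with 39 of 73 genes past the fold upward, beside 18.75% of all rows. The 28 tdTOM- cells with the Lsp1 label are in neither group. In them the chain took 1.07% of summed counts at P30, with a median of 0.67% per cell. In the 35 tdTOM+ Lsp1 cells these were 2.00% and 0.86%, so sums differed with the sort within that label. The number of genes past the fold depended on the deepest cells: without the deepest of 4 depth classes 11 of 60 were past it upward (18.3%, beside 19.7% of all rows) and 8 downward (13.3%, beside 17.3%). By the mean of single-cell CPM 16 were past it upward (17.6% of all rows), and by the mean of log2 values 8 were (11.5%), with 0 downward in both.

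At P30, where 18.9% of all rows were past the fold upward, the higher genes came from every complex. They were 15 of 26 accessory and 3 of 7 core subunits of complex I, 1 of 3 of complex II, 3 of 8 of complex III, 9 of 11 of complex IV, 6 of 13 of complex V, Cox7a2l and the restricted paralog Cox6a2. Ndufb6 and Ndufb7, accessory subunits of the membrane arm of complex I, were at 184.5 and 183.3 CPM in NGCs and at 64.0 and 70.2 CPM in non-NGCs (log2 folds 1.39 and 1.27). Over 13 alternatives these folds ran from 0.093 to 2.155 and from 0.360 to 1.825. Sdhb was at 187.0 against 81.7 CPM (1.10), and Cox4i1 at 568.8 against 342.3 CPM (0.72). Lowest were Sdhc (-0.37), Sdha (-0.23) and Uqcrfs1 (-0.19), none past the fold.

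The summed difference at P30 was not a difference of the typical cell. The chain took 1.75% of the summed counts of NGCs and 1.16% of those of non-NGCs, but its median over cells was 0.89% in NGCs and 0.91% in non-NGCs. The counts of the chain were concentrated: the 8 cells with most of them held at least as many as the other NGCs together, out of 111, while in non-NGCs this took 18 of 96. Above 2.5% of a cell's counts, a mark chosen after the distribution was seen, lay 9 of 111 NGCs and 3 of 96 non-NGCs. Over all P30 cells 26 of 581 lay above that mark, and they held 37.6% of the counts of the chain and 10.2% of all counts. Leaving out the deepest of 4 depth classes of cells gave a median log2 fold of 0.10, thinning of cells to equal depth gave 0.23, the mean of single-cell CPM gave 0.22 and the mean of log2 values of single cells gave 0.12. Ribosomal protein genes took 1.18% of counts in NGCs and 0.79% in non-NGCs, and mitochondrially encoded genes 6.85% and 7.67%, at median depths of 217041 and 234706 counts.

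**Figure D3:**
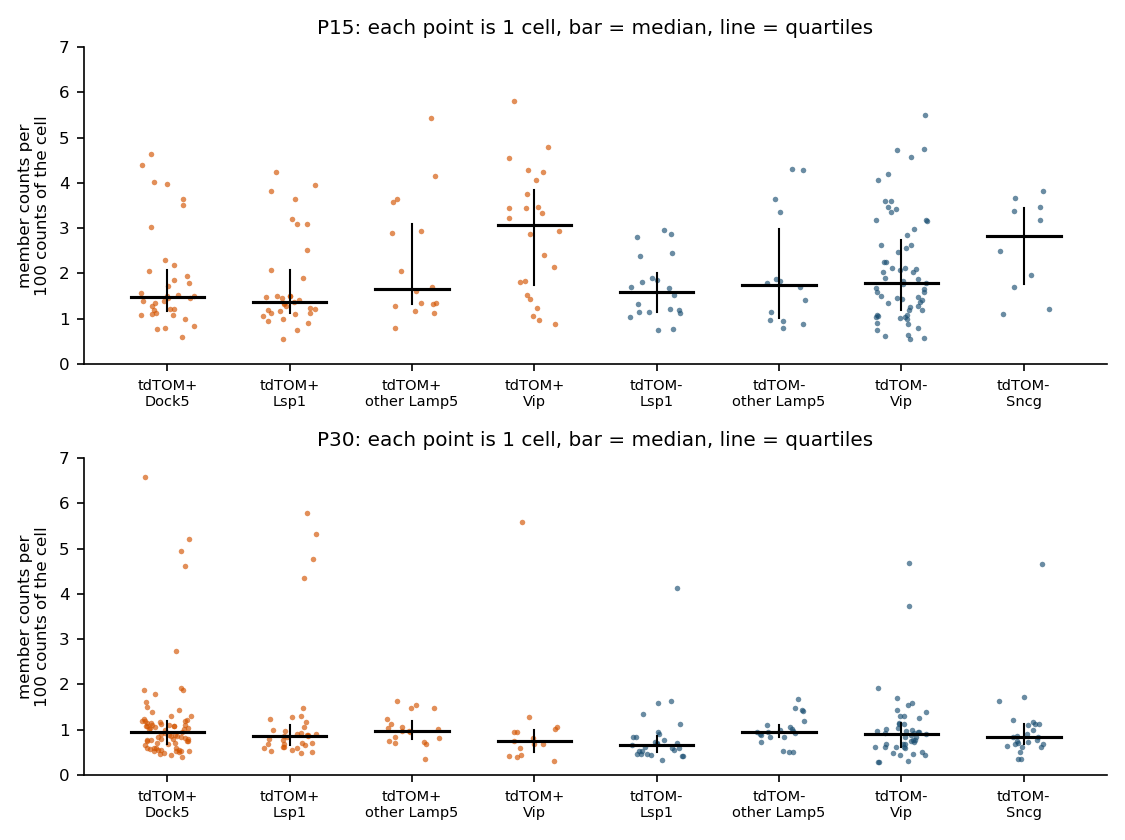
Share of each cell's counts taken by the nuclear-encoded chain at P15 (top) and P30 (bottom), by sort and label, with 1 point per cell, a bar at the median and a line over the quartiles; orange points are tdTOM+ and blue points tdTOM- cells. At P30 most cells lie under 2% and a few lie above 4%, while at P15 many lie between, and levels are not comparable between ages.

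At P15 the lower genes were led by Ndufa5, an accessory subunit of the peripheral arm of complex I, at 223.5 CPM (217.0 to 230.1) in NGCs and 434.3 CPM (426.4 to 442.3) in non-NGCs (-0.93). Uqcrb, a complex III subunit that lines the ubiquinone site, was at 212.7 and 342.1 CPM (-0.66), and Ndufa12 at 53.8 and 89.9 CPM (-0.65). The other 5 were Atp5e, Sdhc, Ndufa11, Ndufv2 and Cox7c. Ndufaf4, an assembly factor of complex I, was past the fold upward, at 67.7 against 43.3 CPM (0.54). Here medians over cells went with the sums: the chain took 2.27% of summed counts and a median of 1.45% per cell in NGCs, and 2.63% and 1.83% in non-NGCs, at median depths of 243717 and 244143 counts. Without the deepest of 4 depth classes the median log2 fold was -0.34. Within the tdTOM+ sort it was -0.47, with 33 of 74 genes past the fold downward, beside 20.6% of all rows. The non-NGCs of that sort were deeper than the NGCs, with median counts of 406016 (24 Vip cells), 344910 (16 other Lamp5 cells) and 756880 (2 Sncg cells). That repeat was therefore not matched for depth, and the part of depth in it was not tested.

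**Figure D4:**
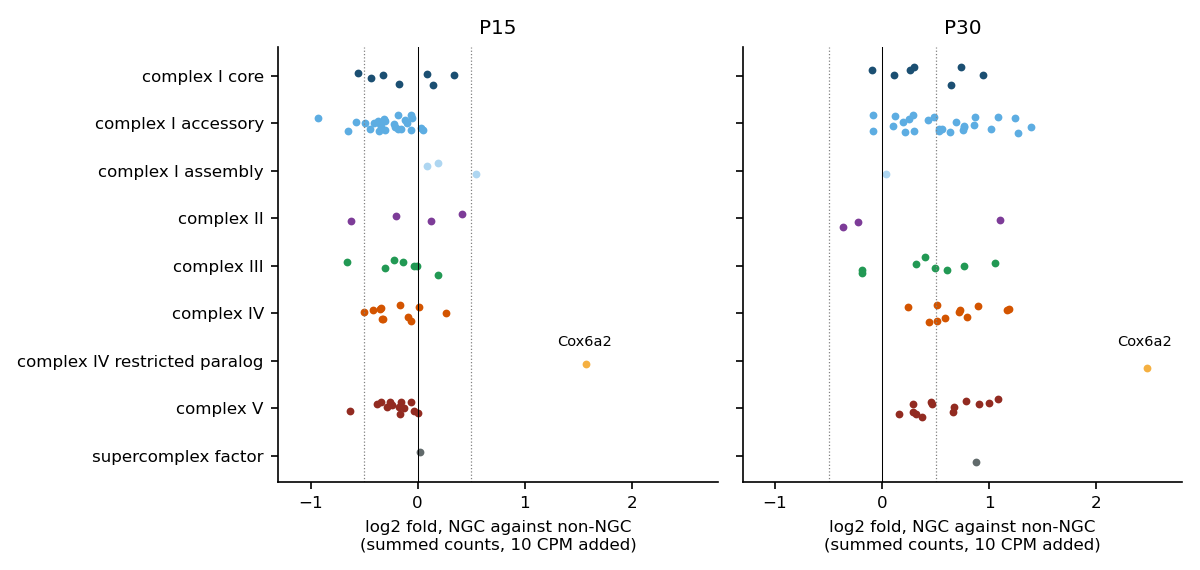
Log2 fold of NGCs against non-NGCs at P15 (left) and P30 (right) for each gene that passed the filter, by role, with dotted lines at 0.5 and -0.5. Points lie mostly below 0 at P15 and mostly above 0 at P30, and Cox6a2 lies above 1.5 at both ages.

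Of 69 genes that passed at both ages, 51 were lower in NGCs at P15 and higher at P30, as were 23.7% of all 3694 rows that passed at both. Cox7c, Ndufv2 and Ndufa11 were past the fold in opposite directions, and Cox6a2 was the only gene past it in the same direction. Cox6a2, known as the heart and muscle form of subunit 6A, lies at chr7:128205435-128206387 on the minus strand (GRCm38). It was at 97.3 CPM (93.0 to 101.7) in NGCs and 26.0 CPM (24.1 to 28.0) in non-NGCs at P15. At P30 the levels were 134.7 (130.5 to 138.9) and 16.1 CPM (14.6 to 17.8). These are log2 folds of 1.58 and 2.47, and over 13 alternatives they ran from 0.70 to 2.17 at P15 and from 1.17 to 2.99 at P30. Of the counts of both forms of subunit 6A, it had 20.9% (20.1% to 21.8%) in NGCs and 5.93% (5.51% to 6.37%) in non-NGCs at P15, and 34.5% (33.6% to 35.4%) and 10.1% (9.15% to 11.0%) at P30.

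Cox6a2 was found in a minority of NGCs. It had a count in 46.4% of NGCs and 29.2% of non-NGCs at P15, and in 43.2% and 14.6% at P30. With cells thinned to a common 132413 counts for P15, and with 5 NGCs and 11 non-NGCs too shallow, the shares were 40.6% (28.5% to 53.6%) and 24.4% (15.3% to 35.4%). At P30, thinned to 136253 counts and with 10 and 11 cells left out, they were 42.6% (32.8% to 52.8%) and 12.9% (6.64% to 22.0%). The intervals overlap at P15 and do not overlap at P30, but they treat cells as independent and do not cover differences between animals. Their overlap is therefore no test of NGCs against non-NGCs or of the ages. The groups also differ in sort as well as in label.

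By label, Cox6a2 was high in both NGC subtypes and not in NGCs alone. Over both sorts at P15, it was highest in 13 Vip Crispld2 Kcne4 cells among subtypes of at least 10 cells. Its level there was 215.6 CPM, with a count in 9 cells, beside 115.7 CPM in 40 Dock5 cells and 70.8 CPM in 53 Lsp1 cells. The 13 Vip Igfbp6 Pltp cells had no count of it. By sort at P15, Cox6a2 was at 111.8 CPM in Dock5 NGCs, 81.5 CPM in Lsp1 NGCs and 71.4 CPM in 24 tdTOM+ Vip cells, where 1 cell held 53.5% of its counts. In 63 tdTOM- Vip cells it was at 30.2 CPM. The 20 tdTOM- Lsp1 cells were between, at 51.0 CPM. At P30 it was at 146.1 CPM in Dock5 NGCs and 112.4 CPM in Lsp1 NGCs, with 31.2% and 31.9% of its counts in 1 cell each, and no count of it was found in 15 tdTOM+ Vip cells. The 28 tdTOM- Lsp1 cells had 10.4 CPM, with 85.3% of it in 1 cell, the 47 tdTOM- Vip cells 37.5 CPM, with 88.9% in 1 cell, and the 25 tdTOM- Sncg cells 0.6 CPM. Lsp1 cells of both sorts carry the same label, so at P30 the level went with the sort within that label. In the embryo Cox6a2 was near absent: 144 counts in 1 of 352 FlashTag+ cells and no row for the tdTOM+/GFP+ cells, and at most 2 counts in any of the compared droplet classes.

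Dock5 against Lsp1 NGCs, the 2 subtypes, gave a second pair of opposite medians. At P15 (36 and 33 cells), 74 genes passed and the median was 0.10, beside -0.02 over all 4399 rows. Past the fold were 10 upward (18.2% of all rows) and 4 downward (19.2%). At P30 (76 and 35 cells), 72 passed and the median was -0.25, beside -0.02 over all 4405 rows, with 1 past the fold upward (16.8% of all rows) and 20 downward (18.4%). When the cells of both sorts with these labels were used, the P30 median was 0.00, with 10 genes past the fold upward and 6 downward (15.08% and 14.53% of all rows). Plate rows 1 to 20 gave -0.75 with 2 upward and 49 downward (25.1% and 31.5% of all rows), and plate rows 21 to 40 gave 0.08 with 17 and 7 (21.7% and 22.1%). Without the deepest of 4 depth classes the median was 0.08, with 17 and 14 (21.7% and 23.3%). Thinned to equal depth it was -0.07. At P15 the median without the deepest of 4 depth classes was -0.02, and with both sorts 0.21.

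The 3 genes that led at P15 were low at P30. Uqcrc2, a core protein of complex III, was at 190.9 CPM in Dock5 and 84.2 CPM in Lsp1 NGCs at P15 (1.09) and at 53.6 and 153.7 CPM at P30 (-1.36). Uqcrfs1, the Rieske protein, was at 281.2 and 134.6 CPM at P15 (1.01) and at 49.9 and 168.9 CPM at P30 (-1.58). Sdhc, a membrane anchor of complex II, was at 105.2 and 59.0 CPM (0.74) and then at 43.0 and 102.4 CPM (-1.08). None of these changed sign under any of 13 alternatives at either age, but the alternatives largely reuse the same cells. Single cells weighed heavily: 1 of 35 Lsp1 NGCs held 40.4% of the Uqcrc2 counts at P30, and 1 of 36 Dock5 NGCs held 29.1% of the Uqcrfs1 counts at P15. Uqcrc2 had a count in 75.0% of Dock5 and 78.8% of Lsp1 NGCs at P15 and in 51.3% and 48.6% at P30, opposite in direction to its folds. For Uqcrfs1 (75.0% and 72.7%, then 44.7% and 51.4%) and Sdhc (80.6% and 75.8%, then 51.3% and 62.9%) these shares went with the folds. Atp5j, the coupling factor 6 of ATP synthase, also stood on opposite sides (0.65 and -0.52).

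**Figure D5:**
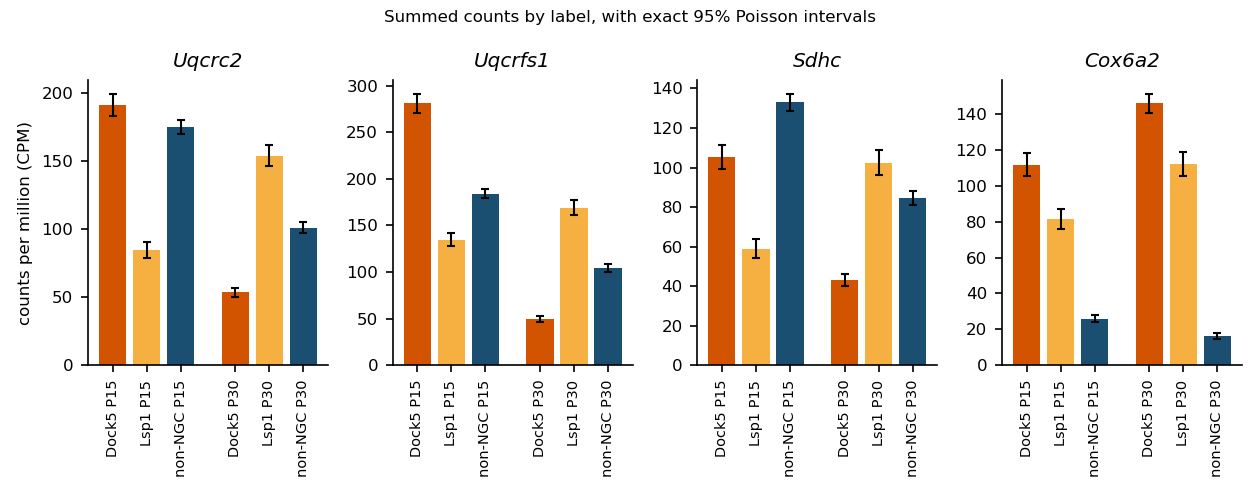
Summed level in CPM of Uqcrc2, Uqcrfs1, Sdhc and Cox6a2 in Dock5 NGCs, Lsp1 NGCs and non-NGCs at P15 and P30, with exact 95% Poisson intervals for counting error only. For the first 3 genes the Dock5 bar is the higher of the NGC bars at P15 and the lower at P30, and for Cox6a2 both NGC bars are above the non-NGC bar at both ages; levels are not comparable between ages.

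Among the other lower genes at P30 were Ndufs8, at 75.1 CPM in Dock5 and 196.1 CPM in Lsp1 NGCs (-1.28), and Cox4i1, at 456.6 and 787.6 CPM (-0.77). All 3 complex II genes that passed were past the fold downward, where 18.4% of all rows were. With cells of both sorts, 1 of 3 complex II genes and 0 of 11 complex IV subunits were, beside 634 of all 4362 rows. Cox4i1 is among those 11. At P15 the lower genes were Ndufb3 (-0.68), Sdhd (-0.57), Ndufb5 (-0.56) and Ndufaf7 (-0.54), and Ndufb3 was past the fold in the same direction at both ages. Medians over cells were 1.48% in Dock5 and 1.37% in Lsp1 NGCs at P15 and 0.95% and 0.86% at P30, so at P30 the per-cell median and the sums (1.62% and 2.00%) pointed in opposite directions.

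Over the labelled classes at P15, the chain took 2.32% of summed counts in 123 Lamp5 cells, 2.87% in 87 Vip cells and 3.20% in 12 Sncg cells, with medians per cell of 1.497%, 2.02% and 3.27%. At P30 the order of the sums was reversed, at 1.48% in 179 Lamp5 cells, 1.28% in 62 Vip cells and 1.15% in 27 Sncg cells. The medians per cell were 0.89%, 0.87% and 0.83%, and their quartiles (0.67% to 1.15%, 0.61% to 1.12% and 0.69% to 1.11%) overlap. These sums rested on few cells: 18 Lamp5, 9 Vip and 5 Sncg cells held at least as many counts of the chain as the rest of their class. Among subtypes of at least 10 cells, the P15 medians per cell ran from 1.28% in Vip Igfbp6 Pltp (13 cells) to 2.94% in Vip Pygm C1ql1 (11 cells). The quartiles of those 2 subtypes, 1.05% to 2.10% and 1.41% to 3.34%, overlap. Lamp5 Plch2 Dock5, at 1.504%, and Lamp5 Lsp1, at 1.42%, were neighbours within their spread. At P30 the medians ran from 0.77% in Lamp5 Lsp1 (63 cells) to 1.01% in Lamp5 Ntn1 Npy2r (17 cells).

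The share of the chain per cell went with depth at both ages. In 4 classes of equal cell number, from shallow to deep, its median was 1.19%, 1.42%, 1.66% and 3.47% at P15 and 0.61%, 0.74%, 0.88% and 1.16% at P30. Across cells it correlated with log10 depth at 0.63 (390 cells) and 0.53 (581 cells) and with the ribosomal share at 0.86 and 0.72. These points share libraries and total counts and are no independent replicates. Markers of astrocytes, oligodendrocytes, immune, vascular and red-blood cells summed to at most 56.5 CPM per list in the compared postnatal groups (vascular markers in P15 Dock5 NGCs, with Cldn5, Pecam1 and Flt1 at 0), and to 61.7 CPM when Dock5 cells of both sorts were taken. The part of depth in the postnatal results was not tested.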

How the data were processed

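Single-cell RNA-seq was analysed from the tables of counts that the authors deposited. They used Cell Ranger for droplet libraries and STAR with UMI-tools for C1 libraries (mm10 build), counted uniquely mapped exonic reads by strand, and removed shallow cells and, at E14.5, clusters outside the GABAergic lineage. Chambers of the C1 chips were imaged after capture, while for droplet cells the methods used here describe no doublet removal and none was done. C1 molecular identifiers are short, so counts may not equal molecules. Counts were summed per group and scaled to CPM with Python 3.11.15, numpy 2.4.6, pandas 2.3.3 and scipy 1.17.1. Figures were drawn with matplotlib 3.10.9. The calculation was tested on simulated data. The simulated group sums had Poisson error only and no differences between cells, so the test covers the arithmetic and not the spread over cells seen here. C1 cells held 18412 to 991458 counts and droplet cells 2515 to 65782. No replicate animals are named, so no test was run.

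Groups followed the labels of each cell. The patch-clamped cells were not used here. The members and gene lists were chosen with earlier results of these data known. Genes named were catalytic and core subunits, paralog pairs, and in each comparison the 3 highest and 3 lowest log2 folds among genes past the filter. Others, such as Atp5j and Ndufa11, were chosen after their values were seen. The values of 1 gene that the rule names are not reported here. Pseudogene rows left out (7 at P30 and in both E14.5 C1 tables, 1 at P15) make Uqcrh, Atp5l, Atp5k and Ndufab1 uncertain. The alternatives were another added CPM, another or no filter, another scaling, thinning, parts of the plate, other groupings and a stricter fold.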

Additional observations from a re-analysis of the deposited data

Results flagged for a closer look

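Results that took opposite signs at P15 and P30 are given here, with the log2 fold at P30 first. For each of them the difference was not tested, since each age is 1 collection. NGCs against non-NGCs had a median over the genes of 0.54, against -0.20 at P15. In the same comparison Cox7c had 0.52 against -0.51, Ndufv2 0.73 against -0.55 and Ndufa11 0.76 against -0.57. Dock5 against Lsp1 NGCs had a median of -0.25 against 0.10. In that comparison Uqcrc2 had -1.36 against 1.09, Uqcrfs1 -1.58 against 1.01, Atp5j -0.52 against 0.65 and Sdhc -1.08 against 0.74.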

How the results depend on the processing

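The median log2 fold in POA stayed between -0.07 and 0.02 under 11 alternatives. In CGE it ran from -0.41 to -0.01 under 11, with -0.01 for progenitor against post-mitotic lists, -0.18 without cells with Top2a or Mki67 and -0.41 for the mean of log2 values of single cells. FlashTag+ against tdTOM+/GFP+ ran from -1.06 to -0.04 under 12, with -0.24 for the mean of single-cell CPM, -0.18 without the deepest of 4 depth classes and -1.06 for the mean of log2 values (all rows -0.61). Dock5 against Lsp1 at P15 gave 0.24 in plate rows 1 to 20, 0.21 with both sorts and -0.02 without the deepest of 4 depth classes. At P30 it turned to 0.08 in plate rows 21 to 40 and to 0.08 without the deepest of 4 depth classes, and gave -0.75 in plate rows 1 to 20, -0.16 for the mean CPM and for the mean of log2 values, -0.07 thinned and 0.00 with both sorts. NGCs against non-NGCs at P15 gave -0.13 in plate rows 21 to 40, -0.34 without the deepest of 4 depth classes and -0.32 for the mean of log2 values. Within the tdTOM+ sort, where the non-NGCs were deeper, it gave -0.47 (33 of 74 genes lower, beside 20.6% of all rows). At P30 it gave 0.22 for the mean CPM, 0.23 thinned, 0.34 in plate rows 1 to 20, 0.10 without the deepest of 4 depth classes and 0.12 for the mean of log2 values. At a log2 fold of 1, higher and lower genes numbered 0 and 0 in POA, 0 and 0 in CGE, 0 and 0 for FlashTag+, 2 and 0 (Dock5 against Lsp1) and 1 and 0 (NGCs) at P15, and 0 and 6 (Dock5 against Lsp1; 4.52% and 4.52% of all rows) and 11 and 0 (NGCs; 5.19% and 4.62%) at P30. Over all rows the shares were 7.83% and 7.24% in POA, 9.81% and 9.26% in CGE, 11.2% and 8.85% for FlashTag+, and at P15 4.98% and 4.73% and then 4.72% and 5.03%. For Lamp5, Vip and Sncg cells the share was 1.5%, 2.02% and 3.27% at P15 and 0.886%, 0.868% and 0.832% at P30 as a median of cells, and 2.34%, 2.90% and 3.24% and then 1.61%, 1.40% and 1.26% of counts without mitochondrial and ribosomal genes. The mean of log2 values, the set without the deepest of 4 depth classes and the tdTOM+ sort were chosen after seeing the data, and the cause was not tested. No paired analysis was possible because no label ties a cell to an animal and no result comes from a test. Depth limits low genes most.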

Other observations

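Within the paralogs of the c subunit, Atp5g1 had 35.3% of the counts of Atp5g3 and Atp5g1 in FlashTag+ cells and 33.1% in tdTOM+/GFP+ cells, and Atp5g2 had 8.22% and 7.01% of those of Atp5g3 and Atp5g2. Of 14 citric acid cycle and pyruvate dehydrogenase genes that passed at P30, none was past the fold between NGCs and non-NGCs, and their median log2 fold was 0.13. Of 12 glycolysis genes there, 3 were higher and 1 was lower, with a median of 0.21.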
